A study of Mus musculus with 3 samples.

Results

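The cells described here are tendon-marker fibroblasts of mouse bone marrow niche preparations, chosen by UMIs (unique molecular identifiers, each counting 1 captured RNA molecule) of 4 tendon-associated genes. A barcode was a member when Tnmd, Thbs4, Kera and Angptl7 together had at least 5 UMIs and Dcn, the decorin gene of fibroblasts, had at least 5 UMIs. Barcodes with 3 or more UMIs of Pi16, 5 or more of Cytl1, or any of Cdh5 or Ptprc were left out, which sets aside adventitial fibroblasts, articular-type cartilage cells, endothelium and leukocytes. The rule found 1171 members among 16318 called barcodes, with 148 of 5568 in the aGVHD library, 125 of 3621 in the BMT library and 898 of 7129 in the WT library. The values that chose the members are given as a description only.

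Tendon fibroblasts build parallel bundles of type I collagen and the small proteoglycans that set fibril width. Scleraxis (Scx) and Mohawk (Mkx) are transcription factors of tendon formation, and tenomodulin (Tnmd) is a membrane protein used as a marker of mature tendon cells. Thrombospondin 4 (Thbs4) is a matrix glycoprotein of tendon and muscle attachments, keratocan (Kera) is a small leucine-rich proteoglycan of cornea and tendon, and Angptl7 is a secreted angiopoietin-like protein.

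In acute graft-versus-host disease (aGVHD), the cells came from female CB6F1 mice irradiated with 4.0 Gy 2 times, given CD45.1+ marrow cells of B6.SJL mice 4 hours later, and given spleen cells of female C57BL/6 mice as well. For bone marrow transplantation (BMT) they came from female CB6F1 mice with the same irradiation and marrow cells but no spleen cells. Untreated female CB6F1 mice gave the WT cells. All 3 were sorted from mice after depletion of cells stained for CD45, a lineage mix or CD71, with Calcein AM and DAPI to keep live cells. The sources used here do not give the age of the mice, how many mice were pooled per library, or the days between transplantation and collection.

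There was 1 library per group, so no difference has a replicate check, no test was made, and "higher" and "lower" compare these libraries only. Intervals are exact 95% intervals and cover counting error only. The libraries held 67439098 UMIs in aGVHD, 44219063 in BMT and 86575425 in WT. The members' sums were 707895 UMIs in aGVHD, 1562289 in BMT and 9544840 in WT. Members were shallower in aGVHD, with a median of 3678.5 UMIs per cell, against 10284 in BMT and 8940 in WT. Ribosomal protein genes took 20.1% of the members' UMIs in aGVHD, 12.7% in BMT and 15.3% in WT, and haemoglobin genes took 1.77%, 0.0141% and 1.09% in the same order. The median share of mitochondrial UMIs lay between 2.86% and 3.33%. No member barcode was shared as a member between libraries, although 8 to 11 called barcodes were shared by each pair of libraries. A doublet score marked 2 of the members in aGVHD, 0 in BMT and 62 in WT as likely doublets. The part of depth, ribosomal share and haemoglobin in the differences below was not tested, and each comparison was also computed at equal depth.

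Members made up 2.66% of called barcodes in aGVHD (interval 2.25 to 3.12%), 3.45% in BMT (2.88 to 4.10%) and 12.6% in WT (11.8 to 13.4%). Of barcodes with at least 5 Dcn UMIs they made up 20.8% in aGVHD (17.9 to 24%), 15.1% in BMT (12.7 to 17.7%) and 24.4% in WT (23 to 25.8%). The low shares of all barcodes in both transplanted libraries thus went with fewer Dcn-positive barcodes of any kind, which numbered 711 in aGVHD, 827 in BMT and 3677 in WT. These shares depend on what else passed the sort and are not numbers of cells in the marrow. At the edge of the rule, 13 members in aGVHD, 7 in BMT and 69 in WT had 5 or 6 marker UMIs. Another 23, 11 and 115 barcodes in the same order met every other condition with 3 or 4. The median member had 25 marker UMIs in aGVHD, 68 in BMT and 34 in WT.

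The label's genes did not mark all members alike. Thbs4 had a UMI in 87.8% of members in aGVHD, 95.2% in BMT and 90.4% in WT, and Angptl7 in 83.1%, 68.8% and 74.2%. Tnmd was detected in 20.9% of members in aGVHD, 61.6% in BMT and 40.6% in WT, and Kera in 13.5%, 46.4% and 27.3%. Thbs4 had the largest count of the 4 markers in 53.4% of members in aGVHD, 80.8% in BMT and 53.8% in WT. Angptl7 had it in 45.9%, 15.2% and 42.7%, with ties given to Thbs4 before Angptl7. All 4 markers were found together in 7 of 148 members in aGVHD, 45 of 125 in BMT and 165 of 898 in WT. Thbs4 and Angptl7 without Tnmd or Kera was the pattern of 71 members in aGVHD, 12 in BMT and 258 in WT. Thbs4 and Angptl7 therefore carry the rule, and a member is called here a tendon-marker cell and not a mature tendon cell. As a background for free RNA, Thbs4 had a UMI in 0.402% of barcodes with at least 3 Cdh5 UMIs, which should lack it, in aGVHD, 0.952% in BMT and 5.07% in WT, at median depths of 3662, 5341 and 5073 UMIs. For Tnmd that background was 0% of 747 barcodes in aGVHD, 0.408% of 735 in BMT and 2.40% of 375 in WT.

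Levels are given in CPM, a gene's UMIs scaled to a common total of the members' UMIs per library. Thbs4 stood at 3677 in aGVHD, 5019 in BMT and 2511 in WT, and Angptl7 at 4101, 2404 and 2755 CPM. Tnmd had 81.9 CPM in aGVHD, 1011 CPM in BMT and 437 CPM in WT. Kera had 53.7 CPM in aGVHD, 838 CPM in BMT and 344 CPM in WT. Sums of Tnmd and Kera were thus highest in BMT and lowest in aGVHD, while Angptl7 was highest in aGVHD. Tnmd was 12.3-fold lower in aGVHD than in BMT (interval 9.50 to 16.3) and Kera 15.6-fold lower (11.3 to 22.2), and both were above 2-fold higher in BMT than in WT, at 2.31 (2.18 to 2.45) for Tnmd and 2.44 (2.28 to 2.60) for Kera. These 4 genes chose the members, so their values here and wherever they return below, alone or as a split of the members, are a description. On mm10, Tnmd lies on the plus strand at chrX:133850980-133865577, Kera on the plus strand at chr10:97606879-97613692, Thbs4 on the minus strand at chr13:92751590-92794818 and Angptl7 on the minus strand at chr4:148495183-148500460, all protein-coding genes of GENCODE.

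The promoters of the pair that carries the rule are shown for their E-boxes (CANNTG, a palindrome in form and so searched on both strands at once), the letters bound by basic helix-loop-helix factors, the class of scleraxis. Each is the 250 bases before the RefSeq start on GRCm38.p6, with E-boxes in capitals, for Thbs4 at chr13:92794819-92795068 and for Angptl7 at chr4:148500463-148500712, both on the minus strand.
Thbs4: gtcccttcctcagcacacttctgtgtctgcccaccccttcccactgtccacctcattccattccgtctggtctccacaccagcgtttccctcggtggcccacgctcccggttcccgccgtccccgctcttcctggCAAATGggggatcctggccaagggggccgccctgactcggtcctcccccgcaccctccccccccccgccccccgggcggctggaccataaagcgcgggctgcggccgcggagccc
Angptl7: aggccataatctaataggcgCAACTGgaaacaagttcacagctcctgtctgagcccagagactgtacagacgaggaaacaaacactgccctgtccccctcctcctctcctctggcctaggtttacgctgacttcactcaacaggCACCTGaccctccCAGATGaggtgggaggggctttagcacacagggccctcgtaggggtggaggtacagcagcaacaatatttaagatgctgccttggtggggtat
The Thbs4 window held 1 E-box and the Angptl7 window 3. Of the 4 marker genes, 2 had a window with an E-box, and 66.2% of 32851 single promoter windows of the same length held one, so the letters are common and mark no site.

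**Figure D1:**
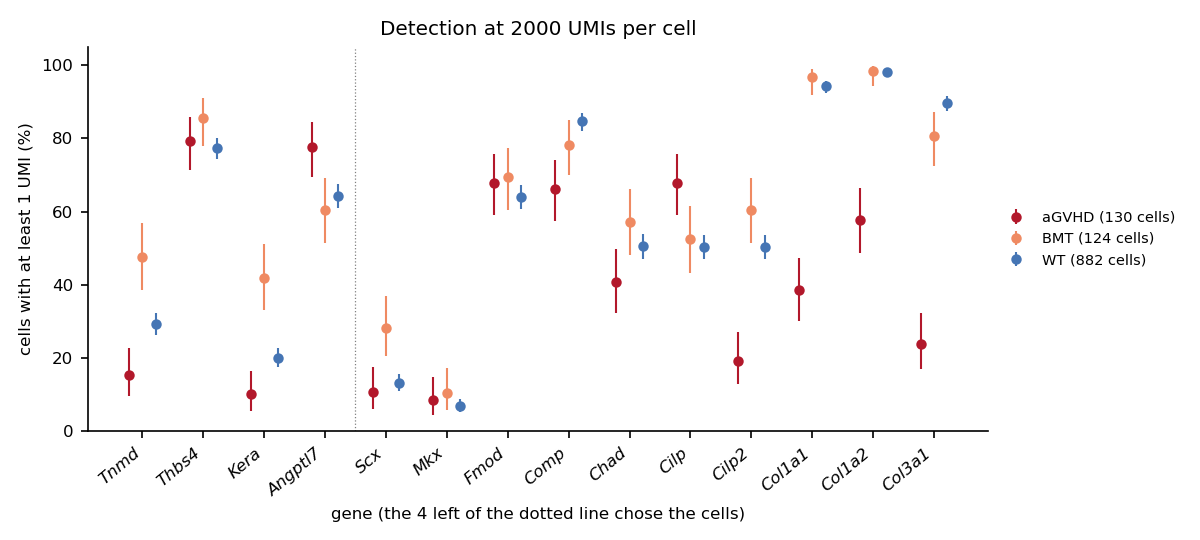
Percentage of tendon-marker cells with at least 1 UMI of each gene after every cell was thinned to 2000 UMIs, in 130 cells of aGVHD, 124 of BMT and 882 of WT, with exact 95% intervals. Tnmd, Kera, Cilp2 and the 3 collagen genes were found in the smallest share of cells in aGVHD, and Angptl7 and Cilp in the largest share there.

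Members can be divided by detection of the mature tendon markers, which are rule genes, so the division is a description. Tnmd or Kera was detected in 43 of 148 members in aGVHD, or 29.1% (interval 21.9 to 37.1%), in 83 of 125 in BMT, or 66.4% (57.4 to 74.6%), and in 422 of 898 in WT, or 47.0% (43.7 to 50.3%). With every cell thinned to 2000 UMIs the shares were 22.3% of 130 cells in aGVHD (15.5 to 30.4%), 57.3% of 124 in BMT (48.1 to 66.1%) and 35.6% of 882 in WT (32.4 to 38.9%). The intervals treat cells as independent and cover no spread between mice or libraries. Median depth did not separate the subsets in 1 direction, with 3289 UMIs in cells with and 3752 in cells without in aGVHD, 9835 and 12308 in BMT, and 9734 and 8468 in WT.

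Tendon genes outside the rule did not all go with detection of Tnmd or Kera. Fmod, Scx and Col12a1 were higher in cells with these markers in each library, Cilp, Col14a1 and Pcolce2 were lower in each, and others such as Comp, Chad and Cilp2 changed direction between libraries. Fibromodulin (Fmod), a proteoglycan that binds collagen fibrils, had 5263 CPM in cells with and 1236 CPM in cells without in aGVHD, 7966 and 795 CPM in BMT, and 4053 and 1032 CPM in WT. Scx had 102 CPM in cells with and 49.9 CPM in cells without in aGVHD, 368 and 36.7 CPM in BMT, and 116 and 32.9 CPM in WT, with too few UMIs in aGVHD to count as measured. Cilp had 1676 CPM in cells with and 2615 CPM in cells without in aGVHD, 740 and 915 CPM in BMT, and 745 and 1366 CPM in WT. Of 1672 genes measured in all 3 libraries, 4 were at least 2-fold higher in cells with Tnmd or Kera in each library, and these were Tnmd, which defines the division, the rule gene Thbs4, and Fmod and Serpinf1, the gene of pigment epithelium-derived factor. Another 7 were at least 2-fold lower in each, which were Ifi204, Slc20a1, Sparcl1, Npy, Creb5, Tnfrsf11b and Has1. Tnfrsf11b encodes osteoprotegerin and Has1 a hyaluronan synthase. Clusterin (Clu) was lower in cells with the markers in each library, at 799 against 2026 CPM in aGVHD, 605 against 922 CPM in BMT and 864 against 2594 CPM in WT. Lubricin (Prg4), the lubricating proteoglycan of joint lining and tendon surfaces, was lower as well, at 3497 against 5105 CPM in aGVHD, 5032 against 38088 CPM in BMT and 2460 against 8255 CPM in WT. Few cells weighed on the BMT sum, where the median member had 1837 CPM of Prg4 and the highest 259465 CPM.

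The type I collagen genes followed the subset in BMT and WT but not in aGVHD. Col1a1 had 643 CPM in cells with Tnmd or Kera and 896 CPM in cells without in aGVHD, against 16793 and 3915 CPM in BMT and 13935 and 7401 CPM in WT. Within cells with the markers Col1a1 was 26.1-fold lower in aGVHD than in BMT, and within cells without them 4.37-fold lower. Chad was higher in cells with the markers in BMT, lower in aGVHD and level in WT, with 475 CPM in cells with and 977 CPM in cells without in aGVHD, 2204 and 928 CPM in BMT, and 2303 and 2306 CPM in WT.

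**Figure D2:**
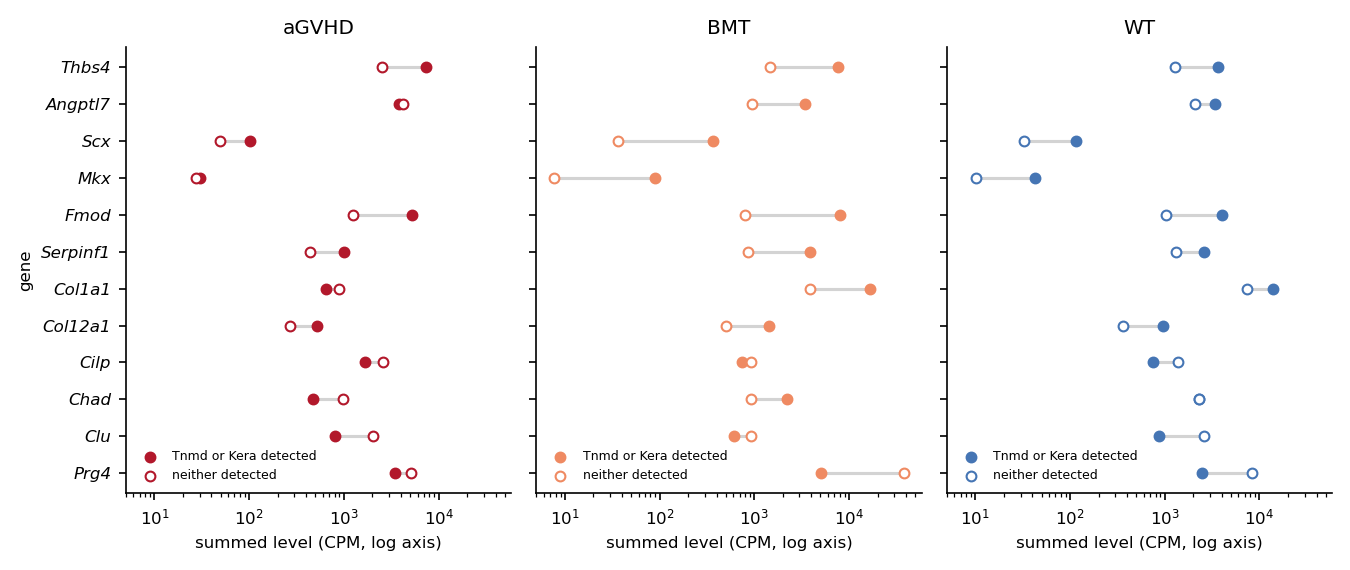
Summed levels of 12 genes (CPM, log axis) in tendon-marker cells with at least 1 UMI of Tnmd or Kera (filled points) and with neither (open points), in the aGVHD, BMT and WT libraries. Thbs4, Scx, Fmod and Serpinf1 lie to the right in cells with the markers in each library, Clu and Prg4 lie to the left, and Col1a1 does so in aGVHD only.

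Among the 18 tendon genes outside the rule, levels were lower in aGVHD than in BMT and mostly similar in BMT and WT. A gene was counted as measured with at least 50 UMIs over both libraries and at least 10 expected in the smaller one. In aGVHD over BMT, 1 of 18 was at least 1.5-fold higher and 14 were at least 1.5-fold lower, against 10.4% higher and 23.4% lower of all 5380 measured genes, and the median log2 ratio was −1.22 against −0.18 for all. In BMT over WT, 6 of 18 were higher and 0 lower, against 10.2% and 10.6% of 9250 genes, with a median of 0.26 against 0.02. In aGVHD over WT, 2 of 17 were higher and 10 lower, against 9.29% and 22.1% of 6821 genes, with a median of −0.86 against −0.14. The 3 comparisons share libraries and are not independent of each other.

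Scx had 62.2 CPM in aGVHD, 229 CPM in BMT and 75.2 CPM in WT, a ratio of 3.05 for BMT over WT (interval 2.68 to 3.46) and a 3.69-fold lower level in aGVHD than in BMT (2.69 to 5.16). Mkx had 28.3 CPM in aGVHD, 55.1 CPM in BMT and 27.0 CPM in WT. These factors were highest in BMT, and their levels in aGVHD and WT did not differ beyond counting error, with ratios of 0.826 (0.595 to 1.12) for Scx and 1.05 (0.628 to 1.65) for Mkx. Scx had only 44 UMIs and Mkx 20 in aGVHD.

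Fmod had 2183 CPM in aGVHD, 4965 CPM in BMT and 2572 CPM in WT. Cartilage oligomeric matrix protein (Comp) had 2118 CPM in aGVHD, 3383 CPM in BMT and 3840 CPM in WT. Chondroadherin (Chad), a leucine-rich cell-binding protein, had 859 CPM in aGVHD, 1670 CPM in BMT and 2304 CPM in WT. Fmod was therefore highest in BMT, whereas Comp and Chad were highest in WT. Cilp and Cilp2, a pair of paralogues named for cartilage intermediate layer protein, went opposite ways. Cilp had 2394 CPM in aGVHD, 813 CPM in BMT and 1049 CPM in WT, so that aGVHD exceeded BMT 2.95-fold (2.74 to 3.17), while Cilp2 had 229, 765 and 737 CPM in the same order. Of the other members, Clec11a, a secreted growth factor of bone, had 29.7 CPM in aGVHD, 210 CPM in BMT and 230 CPM in WT.

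Ratios of the tendon list were also computed within each side of the division, and the difference between the sides was not tested. In cells without either marker the median log2 ratio of the list was −0.19 for aGVHD over BMT and −0.16 for BMT over WT, and in cells with a marker it was −1.47 and 0.27. Scx, Fmod, Chad and Cilp2 were 1.36, 1.55, 1.05 and 1.09 times as high in aGVHD as in BMT in cells without the markers, the opposite direction to the sums over all members. Fmod was 0.771 times as high in BMT as in WT in those cells. Cilp kept its direction in both subsets, at 2.27 in cells with and 2.86 in cells without.

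Collagen transcripts were low in aGVHD. Of 14 measured fibrillar and fibril-associated collagen genes, 1, Col2a1, was at least 1.5-fold higher in aGVHD than in BMT and 12 were lower, against 10.4% and 23.4% of all measured genes, with a median log2 ratio of −1.71. Against WT, 16 of 16 were lower in aGVHD, with a median of −3.17. In BMT over WT, 2 of 17 were higher and 9 lower, with a median of −0.64. The background shares against WT are those given for the tendon genes, and Col1a1, Col1a2, Col12a1 and Col14a1 stand in both lists.

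Col1a1, the alpha 1 chain of type I collagen, had 836 CPM in aGVHD, 11404 CPM in BMT and 10733 CPM in WT. Col1a2 had 1105 CPM in aGVHD, 11150 CPM in BMT and 11591 CPM in WT. Col3a1, of type III collagen, had 884 CPM in aGVHD, 4765 CPM in BMT and 8432 CPM in WT. Type I chains were thus near equal in BMT and WT and low in aGVHD, whereas Col3a1 was low in aGVHD, intermediate in BMT and highest in WT. Col1a1 was 13.6-fold lower in aGVHD than in BMT (12.6 to 14.8), Col1a2 10.1-fold lower (9.40 to 10.9) and Col3a1 5.39-fold lower (4.97 to 5.86). Col5a2, of type V collagen, was at 414, 1099 and 1366 CPM, and Col11a1 at 98.9, 398 and 844 CPM in aGVHD, BMT and WT. For Col2a1 the sum of 1987 CPM in WT was 54.8% from 5 cells. Cartilage markers as a list summed to 226 CPM in aGVHD, 87.7 CPM in BMT and 2957 CPM in WT. Col9a1, Matn3 and Lect1 were at 0 in aGVHD and Cytl1 at 0 in BMT. The rule held Cytl1 below 5 UMIs in every member, so this list is not independent of the rule. The part of these markers in the cartilage collagens' ratios was not tested.

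Single cells showed the low collagen levels as well as the sums. The median member had 140 CPM of Col1a1 in aGVHD (quartiles 0 and 493), 5291 CPM in BMT (2106 and 14673) and 6408 CPM in WT (2653 and 13480). The quartile ranges of aGVHD did not overlap those of BMT or WT. At 2000 UMIs per cell, Col1a1 was detected in 38.5% of cells in aGVHD (30.1 to 47.4%), 96.8% in BMT (91.9 to 99.1%) and 94.2% in WT (92.5 to 95.7%). Barcodes with Cdh5 gave 0.756%, 13.9% and 15.6% at that depth in the same order. Of the Col1a1 UMIs in aGVHD, 55.7% came from 5 cells. Dcn, in contrast, was 20836 CPM in the median member of aGVHD, 21079 CPM in BMT and 17758 CPM in WT, but it was part of the rule. Other Dcn-positive barcodes also had less Col1a1 in aGVHD, at 1088 CPM, against 32070 CPM in BMT and 12201 CPM in WT. Osteoblast markers in that pool summed to 238 CPM in aGVHD, 38857 CPM in BMT and 15682 CPM in WT, so its make-up differed. The Pi16-positive barcodes among them had 427, 2536 and 5664 CPM of Col1a1 in the same order. The difference was thus not confined to tendon-marker cells. Whether it differed in size between the classes, and the part of the pool's make-up, was not tested.

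**Figure D3:**
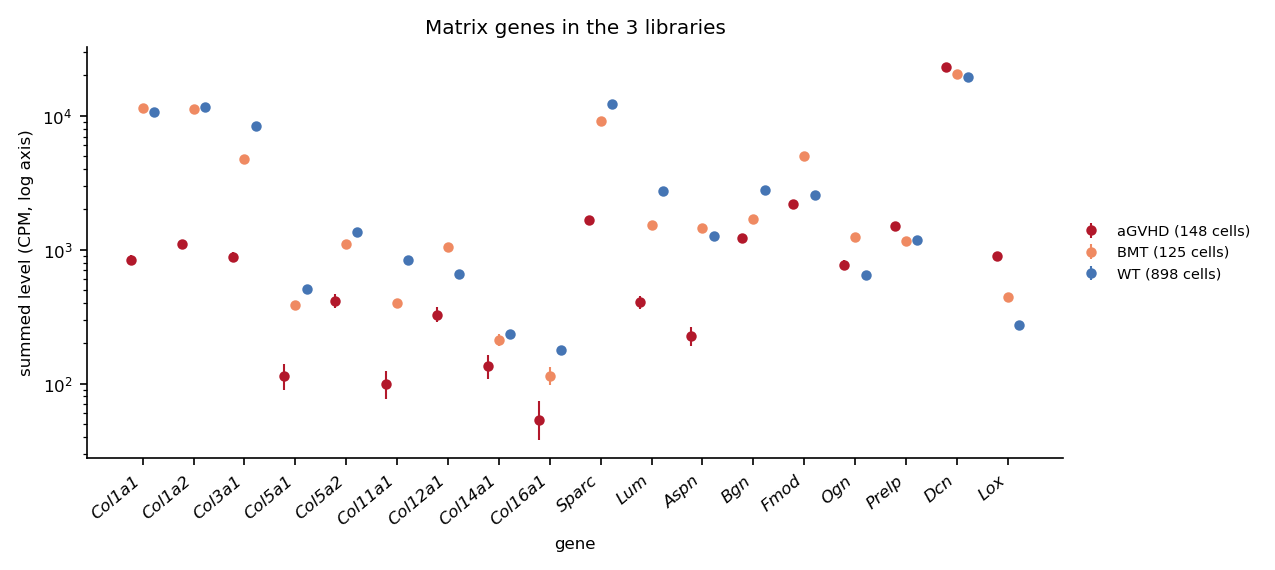
Summed levels (CPM, log axis) of 18 collagen, proteoglycan and matrix genes in tendon-marker cells of aGVHD, BMT and WT, with exact 95% Poisson intervals that cover counting error only and are often smaller than the points. The 9 collagen genes, Sparc, Lum and Aspn are lowest in aGVHD, Dcn is near level, and Lox runs the other way.

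Most transcripts for proteins that bind, fold and link collagen were lower in aGVHD too, with exceptions. SPARC, a collagen-binding matrix protein, had 1675 CPM of Sparc in aGVHD, 9167 CPM in BMT and 12264 CPM in WT. Serpinh1, the collagen chaperone HSP47, had 314 CPM in aGVHD, 976 CPM in BMT and 972 CPM in WT. Of 24 measured genes of collagen folding, processing and crosslinking, 2 were higher and 15 lower in aGVHD than in BMT, against 10.4% and 23.4% of all measured genes, with a median log2 ratio of −0.74. Lysyl oxidase (Lox), which crosslinks collagen and elastin, was among the exceptions, with 890 CPM in aGVHD, 442 CPM in BMT and 275 CPM in WT. Plod2, a lysyl hydroxylase of collagen telopeptides, had 343 CPM in aGVHD, 339 CPM in BMT and 458 CPM in WT. Of 33 measured elastic fibre and adhesive glycoproteins, 5 were higher and 18 lower in aGVHD than in BMT, against 10.4% and 23.4% of all measured genes, with a median of −0.80. The rule gene Thbs4 is in that list and passed in neither direction. Among the higher ones was Thbs1, thrombospondin 1, at 1348 CPM in aGVHD, 644 CPM in BMT and 290 CPM in WT. Periostin (Postn) had 6 UMIs in aGVHD, or 8.48 CPM, against 773 CPM in BMT and 294 CPM in WT, but 81.9% of the BMT UMIs came from 5 cells. Tenascin N (Tnn) had 0 UMIs in aGVHD, against 118 CPM in BMT and 111 CPM in WT, and 87.6% of the BMT UMIs came from 5 cells. With the 0 set to a floor of 3 UMIs, Tnn was 27.9-fold lower in aGVHD than in BMT, a value that rests on the floor.

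Small leucine-rich proteoglycans split within the list. Lumican (Lum) had 404 CPM in aGVHD, 1527 CPM in BMT and 2742 CPM in WT, and asporin (Aspn) had 225 CPM in aGVHD, 1456 CPM in BMT and 1260 CPM in WT. Biglycan (Bgn) had 1225 CPM in aGVHD, 1695 CPM in BMT and 2786 CPM in WT. Prelp, which anchors basement membranes to connective tissue, had 1510 CPM in aGVHD, 1161 CPM in BMT and 1178 CPM in WT. Of 12 measured members, 0 were higher and 9 lower in aGVHD than in BMT, against 10.4% and 23.4% of all measured genes, with a median log2 ratio of −1.07. The rule genes Kera, among the 9 lower, and Dcn are in that list, so it is not independent of the rule. Fmod and Chad, also among the 9 lower, stand in the tendon list as well. Other tendon genes recur too, with Comp and Tnc among adhesive glycoproteins, Pcolce2 in collagen processing, Htra4 among proteases and Egr1 and Egr2 among immediate early genes. These lists are thus not independent of each other. In cells without Tnmd and Kera, where Kera drops out by construction and 10 proteoglycan genes were measured, the median of the proteoglycan list was −0.16. Osteoglycin (Ogn) had 766 CPM in aGVHD, 1251 CPM in BMT and 643 CPM in WT, and in cells without the markers it was 1.61 times as high in aGVHD as in BMT.

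Of 17 measured matrix proteases, 2 were higher and 10 lower in aGVHD than in BMT, against 10.4% and 23.4% of all measured genes, with a median log2 ratio of −1.25. Mmp2, the gelatinase MMP2, had 280 CPM in aGVHD, 962 CPM in BMT and 1375 CPM in WT, and Ctsk, the collagen-cleaving cathepsin K, had 97.5, 552 and 680 CPM in the same order. Of 11 measured protease inhibitors, 3 were higher and 3 lower, a share of lower genes near that of all genes. Serpinf1 was one of the lower ones, at 572 CPM in aGVHD, 2633 CPM in BMT and 1967 CPM in WT. Igf1, the growth factor IGF-1, had 157 CPM in aGVHD, 636 CPM in BMT and 723 CPM in WT.

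MHC class I genes, which encode the molecules that present peptides to CD8 T cells, were higher in aGVHD than in BMT and higher in BMT than in WT. H2-D1, a class I heavy chain, had 5432 CPM in aGVHD, 2846 CPM in BMT and 751 CPM in WT. B2m, the class I light chain beta 2 microglobulin, had 4064 CPM in aGVHD, 2085 CPM in BMT and 543 CPM in WT. H2-K1 had 1873 CPM in aGVHD, 958 CPM in BMT and 202 CPM in WT. Class I heavy chain genes are alike in sequence, so reads may be shared between them, and B2m is the safer measure. Its steps were 1.95-fold in aGVHD over BMT (interval 1.85 to 2.05) and 3.84-fold in BMT over WT (3.67 to 4.01). All 12 measured genes of the class I list were at least 1.5-fold higher in aGVHD than in BMT, 11 of 12 in BMT than in WT, and 11 of 11 in aGVHD than in WT, with median log2 ratios of 1.08, 1.5 and 3.05. The peptide-loading genes Tap1, Tap2 and Tapbp are in that list and in the interferon gamma list below, so the lists are not independent. Of all measured genes, 10.4%, 10.2% and 9.29% were higher in the same comparisons.

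The higher level was spread over the cells. The median member had 3399 CPM of B2m in aGVHD (quartiles 2196 and 4753), 1086 CPM in BMT (609 and 1827) and 435 CPM in WT (255 and 700). The quartile range of aGVHD lay above that of BMT, while those of BMT and WT overlapped narrowly. In BMT the members without Tnmd or Kera had more B2m than those with, at 3149 against 1320 CPM, whereas the subsets were level in aGVHD, at 4032 and 4170 CPM, and in WT, at 542 and 544 CPM. Within cells with the markers B2m was 3.16 times as high in aGVHD as in BMT, and within cells without them 1.28 times. Free RNA was rich in these transcripts, since droplets of at most 100 UMIs held 2569 CPM of B2m in aGVHD, 3140 CPM in BMT and 632 CPM in WT. Free RNA made up an estimated 1.52% of the members' UMIs in aGVHD, 0.439% in BMT and 0.512% in WT by neutrophil granule genes, and 14.4%, 0.672% and 8.09% by haemoglobin genes. With free RNA subtracted at the granule-gene share, the class I medians were 1.08 for aGVHD over BMT, 1.48 for BMT over WT and 3.06 for aGVHD over WT. That is the milder subtraction, after which 0 single-gene ratios left their counting interval and 280 stayed. At the haemoglobin share 88 left it and 188 stayed. In aGVHD over BMT, 0 of 12 class I genes had at least 2 times the level of empty droplets, so the part of free RNA is not settled.

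**Figure D4:**
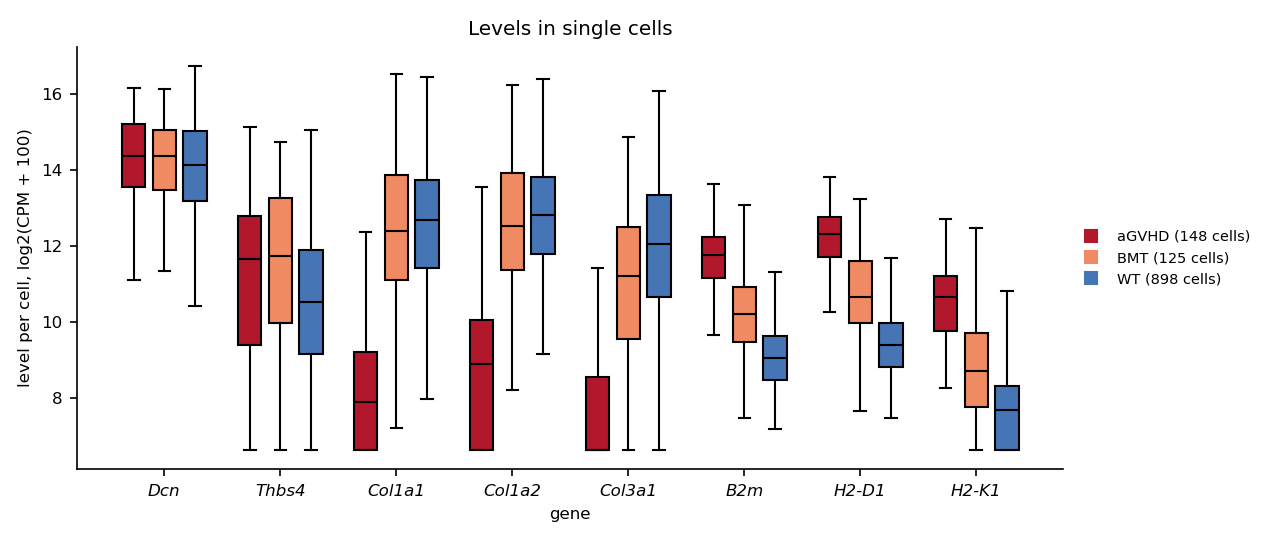
Levels in single tendon-marker cells, log2(CPM + 100), as boxes of the quartiles with the median as a line and whiskers to the last cell within 1.5 times the quartile range, cells beyond not drawn, in 148 cells of aGVHD, 125 of BMT and 898 of WT. The collagen boxes of aGVHD lie below those of BMT and WT, the class I boxes step down from aGVHD over BMT to WT, and Dcn is near level.

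Interferon gamma is a cytokine of activated T cells, and IRF1 is among the factors that induce its targets. All 3 comparisons had more of these targets higher than lower, with 24 of 25 measured genes at least 1.5-fold higher in aGVHD than in BMT, 18 of 21 in BMT than in WT and 20 of 20 in aGVHD than in WT, and 0 lower in each, beside the background shares given for the tendon genes. Irf1 had 410 CPM in aGVHD, 161 CPM in BMT and 99.7 CPM in WT. Tapbp, tapasin of the peptide-loading complex, had 291 CPM in aGVHD, 144 CPM in BMT and 94.9 CPM in WT. Socs1, the feedback inhibitor of the receptor's kinases, had 174 CPM in aGVHD, 85.1 CPM in BMT and 62.4 CPM in WT. Its chemokines Cxcl9 and Cxcl10 were carried by few cells. Cxcl9 had 1521 CPM in aGVHD, 205 CPM in BMT and 0.838 CPM in WT, from 14, 16 and 4 cells, and 98.8% of the aGVHD UMIs came from 5 of them. Cxcl10 had 791 CPM in aGVHD, 56.3 CPM in BMT and 11.9 CPM in WT, and 97.0% of the aGVHD UMIs came from 5 cells. Without likely doublets the ratio of aGVHD over BMT was 1.06 instead of 7.43 for Cxcl9 and 4.57 instead of 14.0 for Cxcl10. Other Dcn-positive barcodes had more Cxcl9, at 5683 CPM in aGVHD, 2873 CPM in BMT and 16.0 CPM in WT. Only 2 of the 25 genes had at least 2 times the level of empty droplets in aGVHD, and in BMT over WT 0 of 21 did. The list's median of 1.80 for aGVHD over BMT was 1.81 with free RNA subtracted at the granule-gene share. In BMT over WT the median of 1.73 was 0.15 at equal depth, where 5 genes remained measured.

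Promoters of 3 interferon gamma or class I genes are shown for the interferon-stimulated response element (ISRE, searched as GAAA, any bases NN, then GAAA, on both strands), which IRF factors bind. They had the most UMIs among the genes of both lists whose window held the element with at most 30 bases in an exon. Each is the 250 bases before the RefSeq start on GRCm38.p6, with the element in capitals, for B2m at chr2:122147437-122147686 on the plus strand, Socs1 at chr16:10785537-10785786 on the minus strand and Cxcl10 at chr5:92348890-92349139 on the minus strand.
B2m: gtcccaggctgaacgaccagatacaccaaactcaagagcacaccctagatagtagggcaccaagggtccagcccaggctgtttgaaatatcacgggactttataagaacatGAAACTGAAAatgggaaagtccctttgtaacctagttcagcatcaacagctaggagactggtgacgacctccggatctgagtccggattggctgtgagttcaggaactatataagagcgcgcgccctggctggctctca
Socs1: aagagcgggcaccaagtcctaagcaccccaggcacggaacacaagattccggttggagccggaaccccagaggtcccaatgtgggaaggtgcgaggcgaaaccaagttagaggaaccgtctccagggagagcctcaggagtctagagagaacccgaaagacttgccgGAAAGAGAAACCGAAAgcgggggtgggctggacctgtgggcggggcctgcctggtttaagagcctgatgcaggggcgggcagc
Cxcl10: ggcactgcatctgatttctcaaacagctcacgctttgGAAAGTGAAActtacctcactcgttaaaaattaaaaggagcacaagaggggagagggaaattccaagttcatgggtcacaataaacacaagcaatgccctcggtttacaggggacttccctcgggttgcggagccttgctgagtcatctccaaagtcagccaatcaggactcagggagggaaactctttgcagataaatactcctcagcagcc
The Socs1 window held 2 overlapping elements and the others 1 each. The element was found for 11 of 23 genes of the interferon gamma list (47.8%) and 3 of 13 of the class I list (23.1%). Of 32851 single promoter windows, 2.98% held it. A gene counted if any of its windows held the element, so the gene and window shares differ in unit. The element was found for 0 of 9 tendon genes outside the rule and 0 of 12 genes of the collagen list, too few genes to set against that window share.

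Most measured complement genes were higher in aGVHD than in BMT. C3, the central complement component, had 1158 CPM in aGVHD, 133 CPM in BMT and 148 CPM in WT, so that aGVHD exceeded BMT 8.70-fold (7.46 to 10.2), while the ratio of BMT over WT was 0.902 (0.776 to 1.04). C3 was detected in 97 of 148 members in aGVHD, 35 of 125 in BMT and 244 of 898 in WT. In aGVHD it stood at 2493 CPM in cells with Tnmd or Kera and 748 CPM in cells without. C1s1 and C1ra, the proteases of the C1 complex, had 413 and 300 CPM in aGVHD, 145 and 126 CPM in BMT, and 159 and 90.2 CPM in WT. Of 11 measured complement genes, 8 were higher and 2 lower in aGVHD than in BMT, against 10.4% and 23.4% of all measured genes, with a median log2 ratio of 1.10. In BMT over WT, 1 of 13 was higher, near the 10.2% of all genes, and 5 were lower, against 10.6%. Ccl2, a chemokine that draws monocytes, had 1432 CPM in aGVHD, 208 CPM in BMT and 177 CPM in WT, and 65.3% of its aGVHD UMIs came from 5 cells. Galnt15, a glycosyltransferase that starts O-linked sugar chains, had 461 CPM in aGVHD, 51.9 CPM in BMT and 53.3 CPM in WT. Its UMIs in aGVHD came from 107 of 148 members, with 13.2% from the top 5. Haptoglobin (Hp) had 1064 CPM in aGVHD, 44.2 CPM in BMT and 50.4 CPM in WT, but 98.1% of the aGVHD UMIs came from 5 cells, and its ratio to BMT was 0.570 without likely doublets.

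Metallothionein genes, which are induced by metals and glucocorticoids, were highest in aGVHD, intermediate in BMT and lowest in WT. Mt1 had 9030 CPM in aGVHD, 5342 CPM in BMT and 3304 CPM in WT, and Mt2 had 6103, 2621 and 1499 CPM in the same order. Of 15 measured glucocorticoid-responsive genes, 9 were higher and 0 lower in aGVHD than in BMT, against 10.4% and 23.4% of all measured genes, with a median log2 ratio of 0.76. The p53 target Cdkn1a, the cell-cycle inhibitor p21, had 497 CPM in aGVHD, 558 CPM in BMT and 225 CPM in WT, and 8 of 19 measured p53 targets were higher and 1 lower in BMT than in WT, against 10.2% and 10.6% of all measured genes. Of 21 measured immediate early genes, 6 were higher and 0 lower in aGVHD than in BMT, against 10.4% and 23.4% of all measured genes, 15 passed in neither direction, and the median was 0.30. The hypoxia and glycolysis list had 2 higher and 1 lower of 14 in the same comparison, a share of higher genes near that of all genes.

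**Figure D5:**
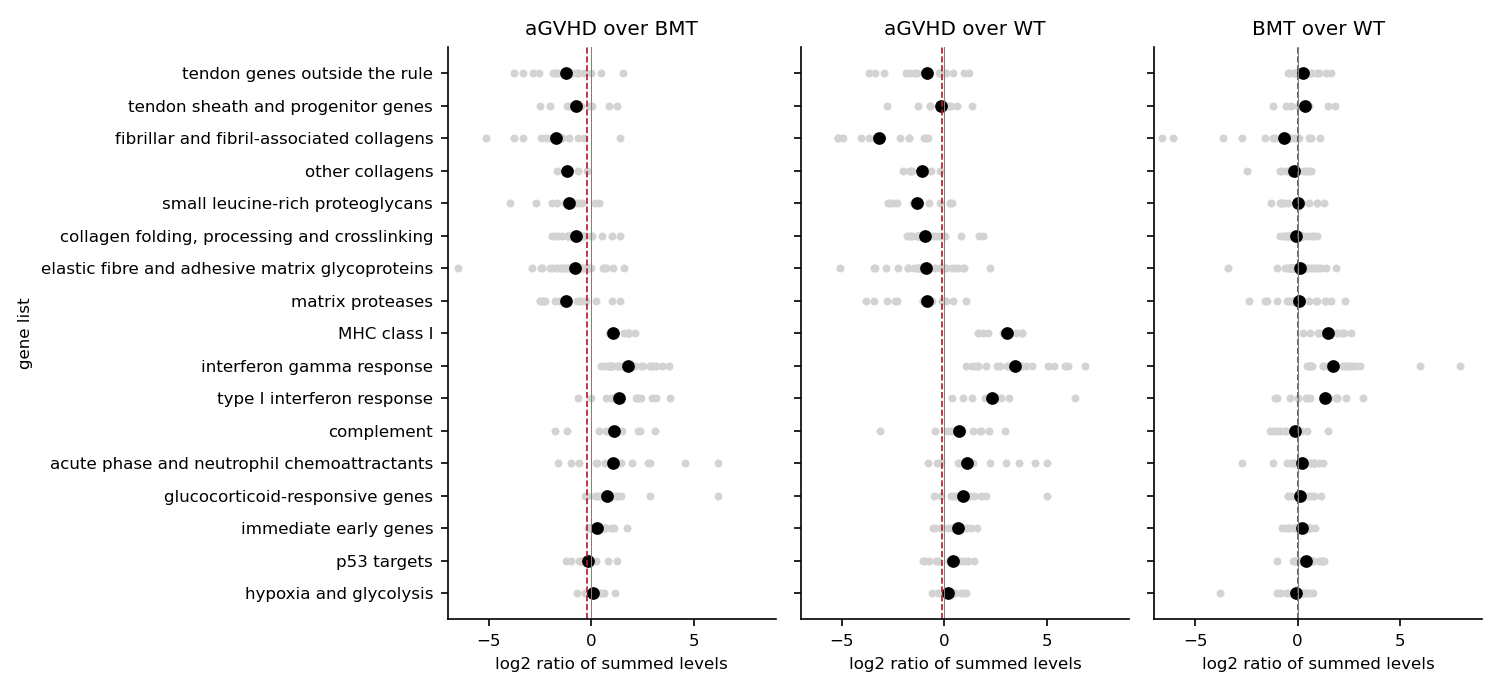
Log2 ratios of summed levels for 17 gene lists in tendon-marker cells, for aGVHD over BMT, aGVHD over WT and BMT over WT. Grey points are measured genes, black points the list median, and the dashed line the median of all measured genes; matrix lists lie to the left and interferon, class I and complement lists to the right in aGVHD over BMT.

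Among all measured genes, 196 of 5380 were at least 2-fold higher in aGVHD than in BMT (3.64%) and 495 were at least 2-fold lower (9.2%). In aGVHD over WT, 197 of 6821 were higher (2.89%) and 689 lower (10.1%), and in BMT over WT 264 of 9250 were higher (2.85%) and 367 lower (3.97%). Counted in either direction, the calls were 12.8% of genes in aGVHD over BMT, 13% in aGVHD over WT and 6.82% in BMT over WT. The higher share of these calls depended on the scaling, at 28.4% in aGVHD over BMT by total UMIs, 39.5% by TMM factors, and 45.7% with marker, mitochondrial, ribosomal and haemoglobin genes left out of the total. At equal depth it was 41.8%. In BMT over WT it was 41.8% by total UMIs and 28.6% at equal depth. By the rule for named genes, the genes lower in aGVHD than in BMT were Postn, Tnn, Col1a1, Kera, Tnmd, Col1a2, Cthrc1 and Spon2, of which Kera and Tnmd chose the members, and those higher were C3, Galnt15, Ifit1, Gbp2b, Fxyd2, Ccl2, Gbp5 and Ccl11. Ifit1, an interferon-induced RNA-binding protein, had 308 CPM in aGVHD, 34.6 CPM in BMT and 3.77 CPM in WT. Ccl11, the eosinophil chemokine eotaxin, had 209 CPM in aGVHD, 28.8 CPM in BMT and 16.8 CPM in WT, with 93.9% of the aGVHD UMIs from 5 cells. Against WT, the lower genes in aGVHD also included Nrep, Lrrc15, Sfrp2 and Dio2, and the higher ones Penk and Thbs1. Sfrp2, a secreted Wnt-binding protein, had 15.5 CPM in aGVHD, 182 CPM in BMT and 283 CPM in WT.

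Most genes with the largest ratios of BMT over WT came from a few cells, and in 6 of the 8 named the top 5 cells held 70.2 to 98.0% of the BMT UMIs. The higher ones were Tchh, Clic5, Tspan15, Spon2, Pla1a, Adamts4, Prg4 and Arhgap20, and the lower ones were S100g, Frzb, Saa3, Myl1, Nppc, Vat1l, Gldn and Mstn. Prg4 had 4727 CPM in aGVHD, 18866 CPM in BMT and 5300 CPM in WT, with 77.4% of the BMT UMIs in 5 cells. Clic5, a chloride channel protein, had 32.5 CPM in aGVHD, 272 CPM in BMT and 20.9 CPM in WT, with 91.8% of the BMT UMIs in 5 cells. Members with at least 2% of their UMIs in Prg4 numbered 3 in aGVHD, 9 in BMT and 24 in WT. Without them the Prg4 ratio of BMT over WT was 1.80 instead of 3.56, and Clic5 was 0.191 times as high. The 5 synovial lining markers summed to 5612 CPM in aGVHD, 19964 CPM in BMT and 6048 CPM in WT, all 5 detected in each library. Other Dcn-positive barcodes had 6036, 7249 and 10407 CPM of them in the same order. Arhgap20 was spread over more cells, with 46.1 CPM in BMT from 37 cells against 9.74 CPM in WT from 73 cells. Mstn, myostatin, which limits muscle growth, had 2.83 CPM in aGVHD, 10.9 CPM in BMT and 65.2 CPM in WT.

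Set beside the other Dcn-positive barcodes of the same library, which numbered 520 in aGVHD, 644 in BMT and 2678 in WT, the members had more Scx and Fmod but not more of every tendon gene. Col1a1 and Col14a1 were lower in the members in each library. This is a description, since all genes of a cell are tied to its choice. Scx stood at 62.2 against 4.67 CPM in aGVHD, 229 against 23 CPM in BMT and 75.2 against 8.63 CPM in WT. Fmod stood at 2183 against 109 CPM in aGVHD, 4965 against 180 CPM in BMT and 2572 against 583 CPM in WT. With 5 CPM added to each level, the 15 genes whose smallest ratio over the libraries was largest were Scx, Chodl, Cpxm2, Itgbl1, Mfap4, Cilp2, Fmod, S100a5, Vipr2, Col8a2, Fgf9, Rasl11b, Egfl6, Mkx and Ggta1, and 46 genes were at least 2-fold higher in all 3 libraries. This count and that of lower genes below set no minimum of UMIs. Both were drawn from 27998 listed genes, less the rule genes and those left out of the rule for named genes. The comparison pools several classes, and some of these genes were as high in one of them. Cilp2 had 229 CPM in members of aGVHD, 765 CPM in BMT and 737 CPM in WT, against 523, 141 and 733 CPM in barcodes with at least 5 Cytl1 UMIs. Fmod had 874, 1110 and 1557 CPM in the same barcodes, below the members in each library but nearer to them than the pool. These Cytl1-high barcodes numbered only 13 in aGVHD and 14 in BMT, against 383 in WT. Mfap4 had 241 CPM in members of BMT, against 212 CPM in the 111 Pi16-positive barcodes there. Of the 15, Itgbl1, an integrin beta-like secreted protein, was found in 59.5% of members in aGVHD, 76.0% in BMT and 69.6% in WT. The 64 genes at least 2-fold lower in all 3 libraries were led by the near-identical osteocalcin genes Bglap2 and Bglap, whose counts are uncertain, and included Cxcl12, a chemokine of marrow stroma, at 356 against 6899 CPM in aGVHD, 509 against 5250 CPM in BMT and 785 against 2398 CPM in WT.

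Markers of endothelium, skeletal muscle and Schwann cells were low, whereas those of other fibroblast classes were not. Endothelial markers summed to 5.65 CPM in aGVHD, 8.32 CPM in BMT and 5.55 CPM in WT, with Cdh5 at 0 by the rule and Emcn and Kdr at 0 in aGVHD. Muscle markers summed to 1.41, 3.20 and 3.88 CPM, with Myod1, Pax7 and Ckm at 0 in aGVHD and BMT, and Schwann markers to 32.5, 50.6 and 74.2 CPM, with Sox10 at 0 in all 3. Osteoblast markers summed to 33.9 CPM in aGVHD, 647 CPM in BMT and 2516 CPM in WT, with Bglap, Bglap2 and Sp7 at 0 in aGVHD. Leukocyte markers summed to 431 CPM in aGVHD, 102 CPM in BMT and 36.7 CPM in WT, with Ptprc at 0 by the rule, and Cd74 gave 261 CPM of the aGVHD sum with 96.2% of its UMIs in 5 cells. The LepR stroma list summed to 574, 724 and 1008 CPM, against 8386, 6879 and 2892 CPM in the other Dcn-positive barcodes. Adventitial markers summed to 987 CPM in aGVHD, 897 CPM in BMT and 640 CPM in WT, Apod-Dpt-Myoc markers to 4063, 3715 and 2734 CPM, and mural markers to 29.7, 433 and 237 CPM. The other Dcn-positive barcodes had 1629, 1047 and 1543 CPM of adventitial markers in the same order. Pi16 is among these markers, and the rule held it below 3 UMIs in every member. Barcodes with more Pi16 fell among the others, so this contrast is in part set by the rule. Sums in the other Dcn-positive barcodes were 2841, 2088 and 2745 CPM for Apod-Dpt-Myoc markers and 155.4, 194.9 and 158.5 CPM for mural markers. Erythroid markers summed to 13407 CPM in aGVHD, 107 CPM in BMT and 8118 CPM in WT, and without the members holding at least 5% haemoglobin (3, 0 and 12 cells) the median log2 ratio of all genes was −0.17 for aGVHD over BMT. The part of each list in the differences above was not tested.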

How the data were processed

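Each library was made from sorted bone marrow niche cells. The deposited values are raw UMI counts per gene and barcode. Per the file headers they were written by Cell Ranger 3.1.0, and per the submitters' processing notes the authors also used Seurat and the mm10 build. A barcode was called as a cell from 1000 UMIs and 500 genes upward, if mitochondrial genes held less than 10%. Members were found by the rule in the text, counts were summed per library, and ratios of CPM were given exact conditional intervals (scipy 1.17.1). No test was made with 1 library per group. Likely doublets (scanpy 1.11.5, top 0.8% per 1000 called barcodes) were marked and kept. TMM factors came from edgeR 4.0.16. Genes named per comparison were the 8 higher and 8 lower with the interval bound farthest from 1, past 2-fold, in at least 3 cells and at least 2 times empty-droplet CPM. Ribosomal, mitochondrial, haemoglobin and unnamed genes were left out of that rule. From each gene list up to 6 members with most UMIs were named, in tendon lists any member, and a few others after their values were seen. Motifs were searched in RefSeq promoter windows. Members and gene lists were chosen with earlier results of these data known. The ratio code was tested on simulated counts. Alternatives were other marker sums, scalings, depths, fold boundaries, doublet removal, and subsets of members chosen after seeing the data.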

Additional observations from a re-analysis of the deposited data

Results flagged for a closer look

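For 3 genes the direction in tendon-marker cells was opposite to that in the other Dcn-positive barcodes, and the difference between the classes was not tested. Tchh was 16.6 times as high in BMT as in WT in tendon-marker cells and 0.470 times in the other Dcn-positive barcodes, and 98.0% of its UMIs in BMT members came from 5 cells. Saa3 was 0.154 times as high in BMT as in WT at a floor of 3 UMIs and 1.83 times in the others, and all of its WT UMIs came from 4 cells. Fxyd2 was 13.5 times as high in aGVHD as in BMT and 0.00752 times in the others, from 3 cells in aGVHD.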

How the results depend on the processing

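No paired analysis was possible because each group has 1 library. Shares of called barcodes, 2.66% in aGVHD, 3.45% in BMT and 12.6% in WT, were 1.81, 2.54 and 8.96% with Thbs4 left out of the marker sum, 1.87% in aGVHD and 9.99% in WT with Angptl7 left out, and 2.21, 2.67 and 9.21% with all barcodes thinned to 2000 UMIs. In WT the share was 14.2% at a marker sum of 3, 10.6% at 10 and 13.5% under 5% mitochondrial UMIs. Of Dcn-positive barcodes the shares were 20.8, 15.1 and 24.4%.

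Genes higher and lower at 1.5-fold numbered 562 and 1259 in aGVHD over BMT, 634 and 1508 in aGVHD over WT, and 942 and 980 in BMT over WT. At 3-fold they numbered 83 and 161, 81 and 254, and 84 and 160. At equal depth fewer genes were measured. The numbers were then 89 and 124 of 1363 in aGVHD over BMT and 67 and 167 of 3292 in BMT over WT. In aGVHD over WT, 127 of 3425 were higher. In aGVHD over BMT the numbers were 103 and 277 of 3146 with at least 100 UMIs, and 300 of 5380 were higher with the reduced total. In cells without Tnmd and Kera, 329 of 3303 were lower in that comparison. In aGVHD over WT the numbers were 103 and 443 of 2238 in cells with either marker.

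Of the list medians, the interferon gamma list in BMT over WT was 0.15 at equal depth, and immediate early genes in aGVHD over WT were 0.88 as a mean over cells. In cells with Tnmd or Kera, the type I interferon list in BMT over WT reversed to −0.05. In the same cells, aGVHD over BMT gave −1.34 for elastic and adhesive glycoproteins, −1.38 for collagen processing, 1.81 for MHC class I and −0.75 for p53 targets, and aGVHD over WT gave −1.45 for collagen processing. In cells without both markers, BMT over WT gave −0.16 for tendon genes, 2.25 for MHC class I and 0.36 for complement, and aGVHD over BMT gave −0.19 for tendon genes, −0.16 for proteoglycans and 0.53 for MHC class I.

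Single genes that reversed in cells without both markers were Fmod (0.771), Ogn (0.834) and Lox (0.730) in BMT over WT, Scx (1.36), Fmod (1.55), Chad (1.05), Cilp2 (1.09) and Ogn (1.61) in aGVHD over BMT, and S100g (0.751) in aGVHD over WT. Without Prg4-rich members Clic5 was 0.191 in BMT over WT and Prg4 1.11 in aGVHD over BMT. Sfrp2 in BMT over WT was 1.11 as a mean over cells, Hp in aGVHD over BMT was 0.570 without likely doublets, and Fxyd2 in aGVHD over WT was 0.0503 at a marker sum of 10. The cause was not tested. The other 677 values of shares, counts and medians stayed within the set limits. Single-gene ratios were less steady. Besides the 14 reversals, 994 alternative values left the counting interval of the main ratio and 2446 stayed within it. At equal depth 122 left it and 88 stayed, and in cells with Tnmd or Kera 152 left it and 74 stayed. Depth limits aGVHD most, where tendon factors rest on few UMIs.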
